A study of Drosophila melanogaster with 36 samples.

Results

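miR-7-5p (dme-miR-7-5p) is the guide strand made from the fly mir-7 hairpin, and it was 1 of 310 fly miRNA entries in each of 5 deposited count tables from Drosophila S2 cells. Its row was chosen by name, with earlier results of these data known, and was described here across 30 small RNA libraries. S2 is a cultured fly cell line. The libraries fell into 10 groups of 3, each with a genotype and a library type. Total small RNA (total-sRNA) libraries came from wild-type (WT), dora, hen1 and hen1/dora cells. Periodate-treated libraries and Ago1 co-immunoprecipitation (co-IP) libraries came from WT and dora cells. Ago2 co-IP libraries came from hen1 and hen1/dora cells. The hen1 and hen1/dora lines were clones made with Cas9, and each replicate of WT and dora was also a separate clonal line. Ago1 was captured on a FLAG-tagged piece of human TNRC6B, and Ago2 was a FLAG-tagged protein made from a transfected plasmid, so the Ago2 co-IP sampled introduced and not endogenous Ago2. The total-sRNA libraries of WT and dora cells came from an earlier study, and library batch can therefore not be told apart from library type or from loss of Hen1. The tables count small RNAs only, so the loss of dora or hen1 could not be checked on their own transcripts. One WT total-sRNA column and the 6 Ago2 co-IP columns could be matched to their group but to no single sample, and were used as libraries without a replicate number.

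A miRNA directs an Argonaute protein to partly matching mRNAs, mainly through its seed, bases 2 to 8 from its 5′ end. In flies most miRNA guide strands are loaded into Ago1, whereas Ago2 mostly holds siRNAs and a number of miRNA passenger strands. Small RNAs in Ago2 receive a 2′-O-methyl group on the last nucleotide from the methyltransferase Hen1. Periodate oxidizes an unmodified 3′ end and blocks its cloning, so treated libraries are enriched in methylated, Ago2-bound species. Some targets that pair extensively with a miRNA trigger its destruction. This target-directed degradation needs Dora, the fly ortholog of ZSWIM8, which is a substrate adaptor of a Cullin-RING ubiquitin ligase. miR-7 is a deeply conserved miRNA that is known in flies for roles in eye and sensory organ development.

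Several other miRNAs were needed to place miR-7-5p. The study named 10 miRNAs as Dora-sensitive on the WT and dora total-sRNA libraries, miR-7-5p among them, so their rise in those libraries is not independent evidence. The mature sequences that follow belong to the 5 miRNAs whose level across the 30 libraries was most like that of miR-7-5p, and to miR-12-5p and miR-190-5p, which were the only Dora-sensitive miRNAs with a greater fold change than miR-7-5p in any Dora comparison made here. They are written 5′ to 3′ from the RefSeq annotation of the dm6 genome, with the seed in capitals.
miR-9b-5p: uCUUUGGUgauuuuagcuguaug
miR-279-3p: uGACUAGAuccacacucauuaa
miR-34-5p: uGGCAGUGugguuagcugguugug
miR-999-3p: uGUUAACUguaagacugugucu
miR-275-3p: uCAGGUACcugaaguagcgcgcg
miR-12-5p: uGAGUAUUacaucagguacuggu
miR-190-5p: aGAUAUGUuugauauucuugguug
No seed is repeated among these 7 sequences, and of the 485 mature miRNAs annotated in dm6, 0 others shared the seed of miR-7-5p. miR-9b-5p lies at chr2L:16698758-16698780 in an intron of grp, miR-12-5p at chrX:15509479-15509501 in an intron of Gmap, miR-190-5p at chr3L:8571822-8571845 in an intron of rhea, and miR-999-3p at chr3R:21798249-21798270 in an intron of CASK. miR-279-3p (chr3R:29215651-29215672), miR-34-5p (chr3R:10100952-10100975) and miR-275-3p (chr2L:7425853-7425875) lie in exons of the noncoding RNAs CR31044, CR43459 and CR43857. miR-999-3p is on the minus strand and the others are on the plus strand.

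The depth behind each value differed by library type. Total-sRNA libraries held 1515851 to 11522776 fly miRNA reads, Ago1 co-IP libraries 5070235 to 10673874, Ago2 co-IP libraries 344324 to 508914 and treated libraries 265759 to 671057. Levels are given in RPM, reads per 1000000 fly miRNA reads of the library, which is a share and not an amount per cell. In treated dora replicate 1, size markers and spike-in standards made up 66.3% of all counted reads, against 0.224% to 0.500% in the other 5 treated libraries. These entries were left out of every library total. The study chose a cohort of 15 Ago1-enriched and another of 11 Ago2-enriched miRNAs by their treated to total-sRNA ratio in WT cells. Members of both were abundant in total-sRNA libraries. Their shares of treated and total-sRNA reads were therefore set in part by that choice. The 15 Ago1-enriched miRNAs made up 71.6% to 78.8% of fly miRNA reads in total-sRNA and 71.7% to 81.7% in Ago1 co-IP libraries. Their share was 9.58% to 14.7% in treated and 18.4% to 22.1% in Ago2 co-IP libraries. The study's 11 Ago2-enriched miRNAs made up 0.456% to 0.545% of the Ago1 co-IP and 36.5% to 39.7% of the Ago2 co-IP reads. They made up 2.26% to 3.69% of total-sRNA and 25.7% to 30.8% of treated reads. Their share was thus lower in Ago1 co-IP and higher in Ago2 co-IP than in total-sRNA libraries. In WT cells the share of the Ago1-enriched cohort was higher in Ago1 co-IP (80.2% to 81.7%) than in total-sRNA libraries (75.3% to 78.4%), without overlap. In dora cells the ranges overlapped (71.7% to 72.3% against 71.8% to 74.5%), so the share did not by itself show capture of Ago1 there.

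miR-7-5p was a minor miRNA wherever Dora was present, and in total-sRNA and Ago1 co-IP libraries it was more than 10 times as abundant where Dora was absent. The 3 WT total-sRNA libraries had 273, 294 and 288 RPM, and the 3 dora libraries had 3717, 4317 and 4381 RPM. The groups did not overlap, and the lowest dora library was far above the highest WT library. By number of reads, miR-7-5p ranked between 56 and 59 among the 310 fly miRNAs in WT and between 26 and 33 in dora libraries; reads were not corrected for how well each miRNA is cloned. The fold change was 16.2 (log2 fold change 4.02, standard error 0.18, 95% interval 3.60 to 4.43, adjusted p = 2.55e-06 from edgeR's quasi-likelihood test). It ranked 1 of the 100 miRNAs tested, whose median log2 fold change was -0.03.

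In Ago1, the 3 WT libraries had 259, 329 and 264 RPM of miR-7-5p, and the 3 dora libraries had 6715, 5921 and 7135 RPM. The lowest dora library was again far above the highest WT library. The fold change was 22.3 (log2 fold change 4.48, standard error 0.15, adjusted p = 9.40e-08 from edgeR). It ranked 3 of the 91 miRNAs tested. At 22 or 23 among all fly miRNAs, the rank by reads in dora Ago1 was the highest that miR-7-5p reached in any group.

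The lines without Hen1 gave the same direction. The 3 hen1 total-sRNA libraries had 369, 408 and 354 RPM of miR-7-5p, and the 3 hen1/dora libraries had 4548, 4531 and 5629 RPM. The fold change between these groups, which did not overlap, was 12.5 (log2 fold change 3.64, standard error 0.17, adjusted p = 4.80e-08 from edgeR). It again ranked 1 of the miRNAs tested, of which there were 94. miR-7-5p thus rose upon loss of Dora in both backgrounds. The difference between the log2 fold changes, hen1 background minus Hen1-containing background, was -0.42 (95% interval -0.87 to 0.04, adjusted p = 0.301 from an interaction term in edgeR), which did not pass the threshold of 0.05.

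**Figure D1:**
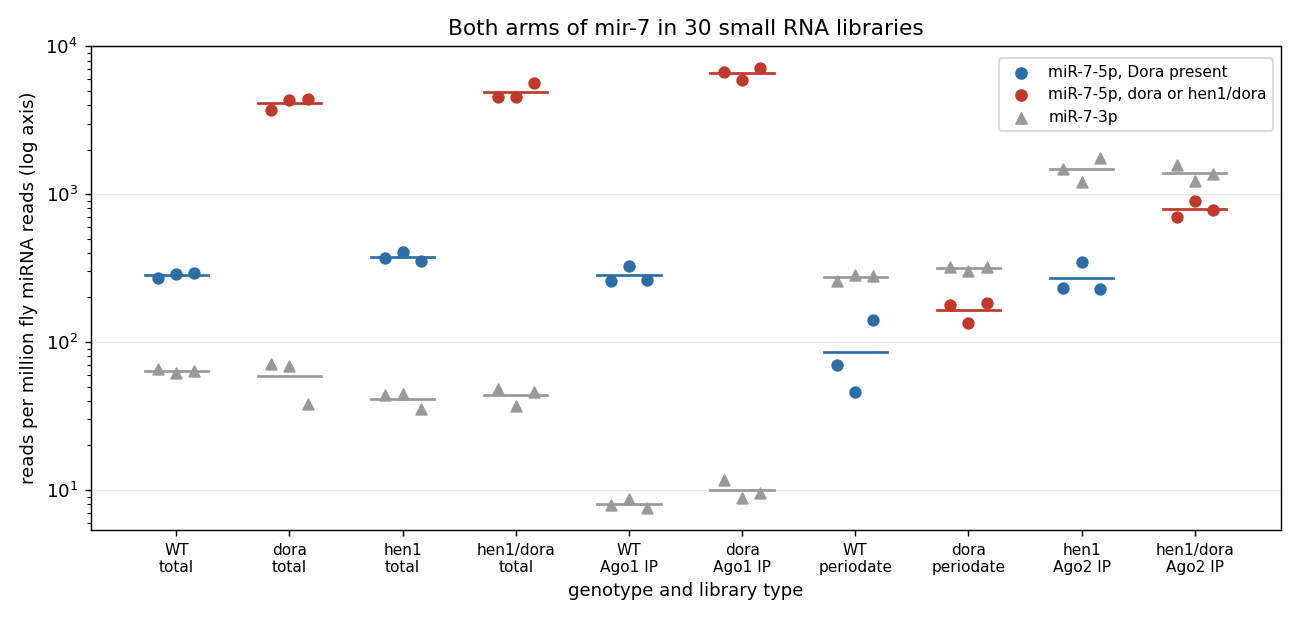
RPM, as a share of fly miRNA reads (log axis), of miR-7-5p (circles) and of the passenger strand miR-7-3p (grey triangles) in 10 groups of 3 libraries, with 1 point per library and a bar at each group mean. The red circles of dora and hen1/dora stand at 3717 RPM or more in total-sRNA and Ago1 co-IP libraries, and the triangles lie above the circles only in treated and Ago2 co-IP libraries.

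miR-7-5p was scarce among periodate-resistant small RNAs. The 3 treated WT libraries had 70.0, 45.7 and 140.1 RPM, resting on 26, 18 and 67 reads, and the 3 treated dora libraries had 177, 134 and 183 RPM, resting on 47, 90 and 86 reads. WT replicate 3 was above dora replicate 2, so the groups overlapped. The exact 95% binomial interval of WT replicate 2 was 27.1 to 72.2 RPM and that of WT replicate 3 was 109 to 178 RPM; such intervals cover counting error only, and the WT libraries therefore differed by more than it. The log2 fold change upon loss of Dora was 0.82 (standard error 0.36, 95% interval 0.02 to 1.62, adjusted p = 0.374 from edgeR over 99 miRNAs), which did not pass the threshold. Without WT replicate 3 it was 1.36 with an adjusted p of 0.123 from edgeR. Without dora replicate 1, the library rich in markers, it was 0.83 with an adjusted p of 0.390 from edgeR.

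In the Ago2 co-IP of lines without Hen1, miR-7-5p rose upon loss of Dora, by less than in total-sRNA libraries of the same genotypes. The 3 hen1 libraries had 232, 348 and 227 RPM, from 113, 151 and 78 reads. The 3 hen1/dora libraries had 705, 903 and 778 RPM, from 359, 412 and 329 reads. Each hen1/dora library was above each hen1 library, and the fold change was 2.80 (log2 fold change 1.49, standard error 0.23, 95% interval 0.98 to 2.00, adjusted p = 0.00352 from edgeR). It ranked 1 of the 100 miRNAs tested. Reads of the Ago1-enriched cohort made up 18.4% to 22.1% of the hen1 and 18.95% to 19.4% of the hen1/dora co-IP libraries, so Ago1-type miRNAs were present in both. Their part in the rise of miR-7-5p was not tested.

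The sizes of these changes were compared directly. The log2 fold change upon loss of Dora was lower by 3.26 in treated than in total-sRNA libraries, a ratio of 9.58 between the fold changes (95% interval of the difference -4.15 to -2.37, adjusted p = 6.16e-05 from the interaction term in edgeR). Without treated WT replicate 3 the difference was -2.63 (adjusted p = 0.00016 from edgeR). It was 2.18 lower in Ago2 co-IP than in total-sRNA libraries of the lines without Hen1, a ratio of 4.53 (95% interval -2.75 to -1.61, adjusted p = 1.01e-05 from edgeR). It was 3.61 higher in Ago1 co-IP than in treated libraries, a ratio of 12.2 (95% interval 2.73 to 4.48, adjusted p = 9.56e-06 from edgeR). Between Ago1 co-IP and total-sRNA libraries the difference was 0.45 (95% interval 0.00 to 0.90, adjusted p = 0.273 from edgeR), and it passed the threshold under 2 other scalings (log2 differences of 0.77 and 0.68, both with an adjusted p of 0.0306 from edgeR). The 3 comparisons among total-sRNA, Ago1 co-IP and treated libraries share libraries with each other, and the Ago2 co-IP comparison shares none with them.

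Among the miRNAs named as Dora-sensitive, miR-7-5p stood at or near the top by log2 fold change in each library type, though in treated libraries its change did not pass the threshold. In total-sRNA libraries all 9 others rose upon loss of Dora, where 18% of the 100 miRNAs tested rose, with log2 fold changes from 1.69 for miR-277-3p to 4.01 for miR-12-5p and a median of 2.72. The value of miR-12-5p was 0.01 below that of miR-7-5p, with a standard error of 0.37, and the order of the pair is not resolved. In lines without Hen1, 8 of the 8 others tested rose, against 17% of all miRNAs tested, with a median of 2.28. miR-1012-3p did not pass the filters there. In Ago1, 8 of the 8 others tested rose, against 31.9% of all miRNAs tested, with a median of 3.19. Only miR-12-5p (log2 fold change 5.74) and miR-190-5p (4.69) had greater values than miR-7-5p there.

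In treated and Ago2 co-IP libraries the log2 fold change of each of the others tested was below that of miR-7-5p, by amounts that were not tested. In treated libraries 0 of the 9 others rose, and 0% of the 99 miRNAs tested did so (2 fell in edgeR, which is 2.02%, 12 had an unadjusted p under 0.05 in either direction, and DESeq2 called 1 rise and 3 falls). The 9 log2 fold changes ran from -0.15 to 0.76 with a median of 0.09. The highest, of miR-12-5p, had a standard error of 0.34, and its order against miR-7-5p is not resolved. In the Ago2 co-IP only miR-9b-5p of the 8 others tested rose (log2 fold change 0.89, adjusted p = 0.0471 from edgeR), and with miR-7-5p it made up the 2% of 100 miRNAs called. This call of miR-9b-5p held in 5 of 12 alternatives. It was lost with RLE scaling, without the filters, without the hen1 library at 232 RPM of miR-7-5p and without any 1 of the hen1/dora libraries (adjusted p from 0.0649 to 0.145 in edgeR). miR-190-5p, which had 10418 ± 653 RPM in the hen1 and 11790 ± 850 RPM in the hen1/dora Ago2 co-IP (SD, n = 3), had a log2 fold change of 0.11 there. miR-12-5p had 3783 ± 724 and 4906 ± 959 RPM (SD, n = 3). Both were thus several times more abundant in Ago2 co-IP libraries than miR-7-5p.

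**Figure D2:**
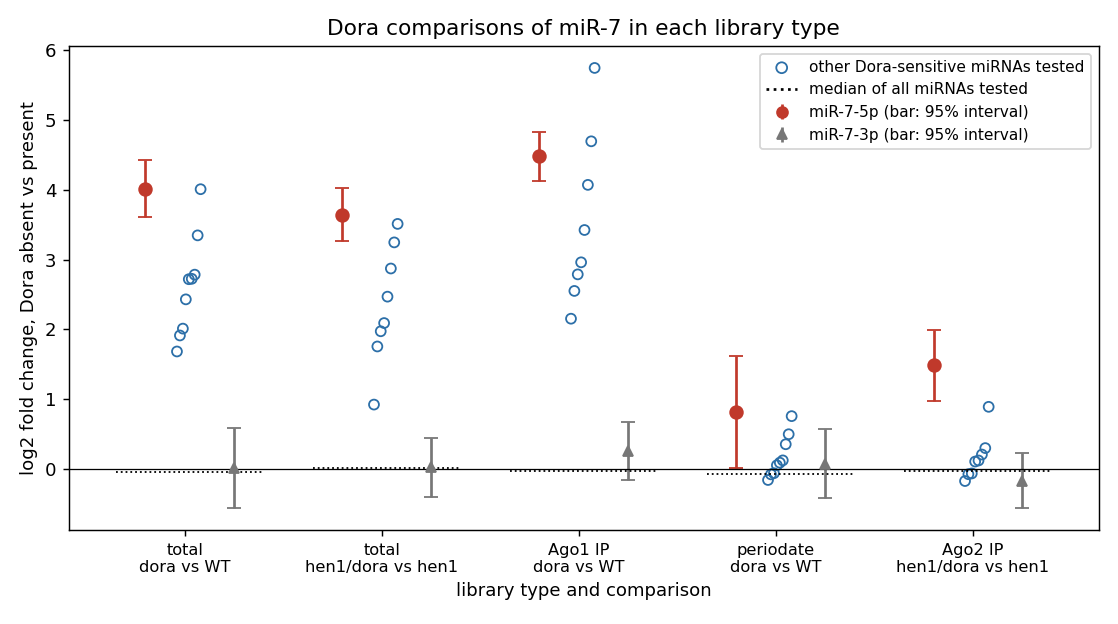
Log2 fold change in cells without Dora against cells with Dora, for miR-7-5p (red) and miR-7-3p (grey triangles) with 95% intervals, for the other Dora-sensitive miRNAs tested (open circles) and as the median of all miRNAs tested (dotted line), in 5 comparisons. miR-7-5p lies between 3.64 and 4.48 in total-sRNA and Ago1 co-IP libraries, at 0.82 in treated and at 1.49 in Ago2 co-IP libraries, and miR-7-3p stays between -0.16 and 0.26.

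The mir-7 hairpin lies on the plus strand of chromosome 2R of dm6, at chr2R:20606067-20606154, inside HnRNP-K, which encodes an RNA-binding protein and is on the same strand (chr2R:20587551-20606854). It overlapped 0 exons of the 6 annotated HnRNP-K transcripts and fell within the span of 5 of them, so it is intronic there. miR-7-5p takes up chr2R:20606081-20606103 and the passenger strand, miR-7-3p, chr2R:20606121-20606142. Both strands come from the same precursor, and their ratio within a library needs no scaling between libraries.

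The passenger strand did not pass the threshold in any Dora comparison. WT total-sRNA libraries had 65.6, 63.3 and 61.4 RPM of miR-7-3p, and dora libraries had 71.2, 69.0 and 37.8 RPM. Dora replicate 3, the most deeply sequenced library, was below every WT library, and the other dora libraries were above them. The log2 fold changes of miR-7-3p were 0.02 in total-sRNA (95% interval -0.55 to 0.60), 0.08 in treated, 0.26 in Ago1 co-IP, 0.03 in hen1 total-sRNA and -0.16 in Ago2 co-IP libraries, with adjusted p-values from 0.249 to 0.973 in edgeR. In Ago1 the passenger was close to absent, at 7.54 to 11.6 RPM over the 6 libraries.

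The ratio of the arms therefore followed miR-7-5p. WT total-sRNA libraries had 4.16, 4.64 and 4.69 reads of miR-7-5p per miR-7-3p read, and dora libraries had 52.2, 62.6 and 115.8. In Ago1 the ratio was 33.0, 37.9 and 35.03 in WT and 579, 672 and 744 in dora libraries. Loss of Dora changed the log2 ratio by 4.01 in total-sRNA, 4.24 in Ago1 co-IP and 3.61 in hen1 total-sRNA libraries, with no overlap between the groups and an exact two-sided permutation p of 0.1 in each, the smallest that 3 libraries against 3 allow. In the Ago2 co-IP the ratio was 0.157, 0.288 and 0.129 in hen1 and 0.450, 0.741 and 0.568 in hen1/dora libraries, a log2 difference of 1.67 (exact permutation p = 0.1, no overlap). In treated libraries it was 0.271, 0.162 and 0.500 in WT and 0.553, 0.443 and 0.566 in dora, a log2 difference of 0.87 (exact permutation p = 0.2, groups overlapping).

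**Figure D3:**
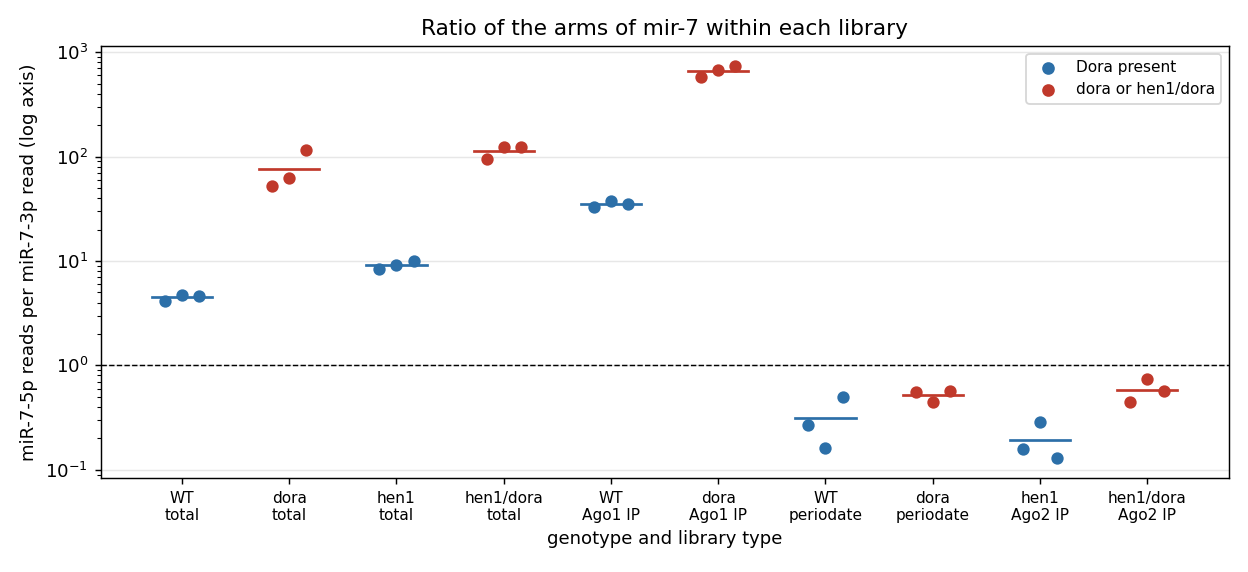
Reads of miR-7-5p per read of miR-7-3p (log axis) in each of 30 libraries, with 1 point per library and a bar at each group mean; the dashed line marks equal reads of both arms. The 12 treated and Ago2 co-IP libraries lie below the line, from 0.129 to 0.741, and dora Ago1 co-IP libraries reach 744.

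The arms of mir-7 were distributed in opposite ways over the library types. miR-7-5p exceeded its passenger in all 18 total-sRNA and Ago1 co-IP libraries, and the passenger exceeded miR-7-5p in all 12 treated and Ago2 co-IP libraries. In WT cells the share of miR-7-3p was higher in treated than in total-sRNA libraries (log2 ratio 2.11, adjusted p = 2.84e-05 from edgeR), and the share of miR-7-5p was lower (log2 ratio -1.72, 95% interval -2.59 to -0.85, adjusted p = 0.00286 from edgeR). 76.6% of the 107 miRNAs tested differed between these library types, so a change of share was common. Without treated WT replicate 3 the log2 ratio of miR-7-5p was -2.30. Scaled to the 15 Ago1-enriched miRNAs, which themselves lost most of their reads on treatment, the direction for miR-7-5p turned, to 1.09 (adjusted p = 0.0122 from edgeR).

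In dora cells, where miR-7-5p was abundant, its share fell on treatment by 4.66 on the log2 scale (adjusted p = 2.89e-07 from edgeR), from 3717, 4317 and 4381 RPM to 177, 134 and 183 RPM. This was the lowest of the 97 ratios tested, of which 88.7% differed. It kept its direction when scaled to the Ago1-enriched cohort, at -2.09. The share of miR-7-3p rose in the same libraries (log2 ratio 2.42, adjusted p = 5.42e-05 from edgeR).

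Between Ago1 co-IP and total-sRNA libraries of WT cells, the share of miR-7-5p differed by a log2 ratio of 0.00 (95% interval -0.36 to 0.35, adjusted p = 0.975 from edgeR), where 64.7% of 102 miRNAs differed. In dora cells it was 1.59 times higher in Ago1 (log2 ratio 0.67, adjusted p = 0.00209 from edgeR), where 69.1% of 110 miRNAs differed. miR-7-3p was depleted in Ago1 in both genotypes, with log2 ratios of -2.98 and -2.56. Directly between Ago1 co-IP and treated libraries, the share of miR-7-5p was 3.29 times higher in Ago1 in WT (log2 ratio 1.72, adjusted p = 0.00295 from edgeR; 91.5% of 106 miRNAs differed) and 40.5 times higher in dora cells (log2 ratio 5.34, adjusted p = 3.75e-09 from edgeR; 93.5% of 93 differed). Scaled to the Ago1-enriched cohort, the log2 ratio turned to -1.17 in WT and was 2.78 in dora cells. In WT it was 2.30 without treated WT replicate 3.

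In the Ago2 co-IP of lines without Hen1, where no periodate was used, the arms separated in the same way. The share of miR-7-3p was higher in Ago2 than in total-sRNA libraries by a log2 ratio of 5.17 in hen1 and 4.99 in hen1/dora cells (adjusted p = 1.64e-08 and 4.91e-10 from edgeR). The passenger reached 1477, 1209 and 1763 RPM in hen1 and 1568, 1219 and 1369 RPM in hen1/dora co-IP libraries, groups that overlapped. The share of miR-7-5p was lower in Ago2 than in total-sRNA libraries of hen1/dora cells (log2 ratio -2.62, adjusted p = 2.56e-08 from edgeR; 82.9% of 105 miRNAs differed), and the log2 ratio was -0.71 when scaled to the Ago1-enriched cohort (adjusted p = 0.0018 from edgeR). In hen1 cells the log2 ratio was -0.49 (95% interval -0.97 to 0.00, adjusted p = 0.0569 from edgeR; 85.6% of 104 differed), -0.72 without the Ago2 co-IP library at 348 RPM (adjusted p = 0.00974 from edgeR) and 1.46 in the opposite direction when scaled to the Ago1-enriched cohort.

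**Figure D4:**
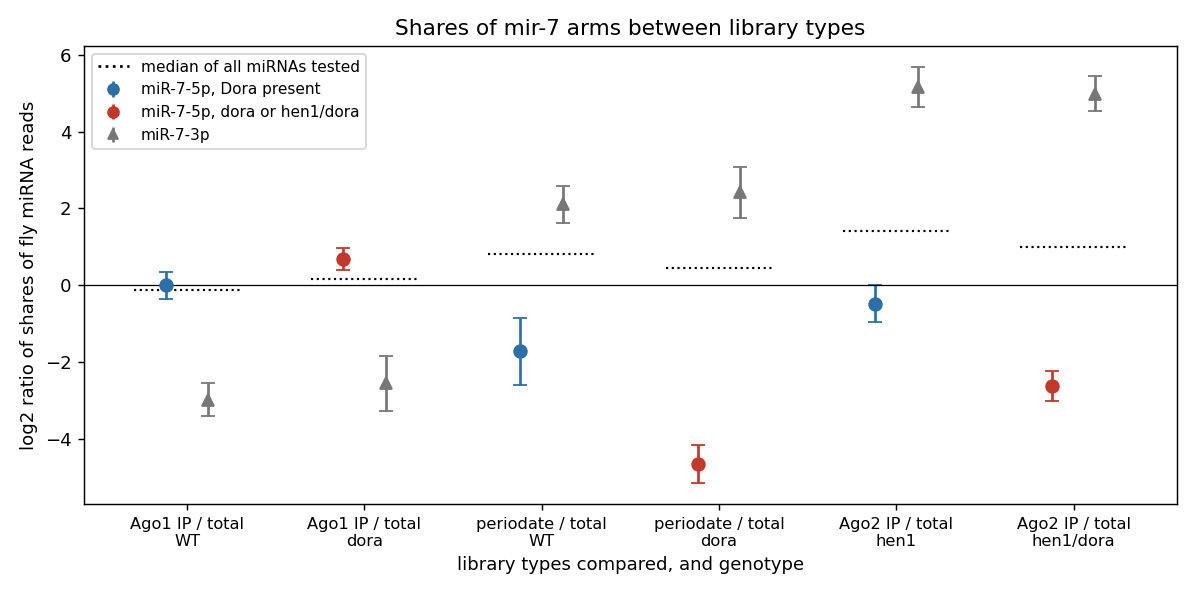
Log2 ratio of the share of fly miRNA reads in an enriched library type to that in total-sRNA libraries of the same genotype, with 95% intervals, for miR-7-5p (circles) and miR-7-3p (triangles); the dotted line is the median of all miRNAs tested. The triangles lie near -3 for Ago1 and above 2 for treated and Ago2 co-IP libraries, and the circle of dora cells is lowest, at -4.66, after treatment.

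Reads of miR-7-5p were also set against each cohort within the same library. Per 1000 reads of the Ago1-enriched cohort there were 0.353 to 0.382 reads of miR-7-5p in WT and 5.18 to 5.99 in dora total-sRNA libraries, and 0.323 to 0.406 and 8.24 to 9.96 in Ago1 co-IP libraries. In treated libraries the values were 0.477 to 1.40 in WT and 1.14 to 1.55 in dora, and in the Ago2 co-IP they were 1.12 to 1.57 in hen1 and 3.72 to 4.72 in hen1/dora cells. In cells with Dora, these values were at least as high in treated and Ago2 co-IP libraries as in the Ago1 co-IP. In cells without Dora they were highest in Ago1. With Dora, the Ago2 co-IP was from hen1 and the Ago1 co-IP from WT cells. This cohort itself made up 9.58% to 14.7% of treated and 18.4% to 22.1% of Ago2 co-IP reads. In WT Ago1 co-IP libraries it made up 80.2% to 81.7%. Against the Ago2-enriched cohort, miR-7-5p had 0.159 to 0.540 reads per 1000 in treated WT and 0.436 to 0.593 in treated dora libraries. In Ago2 co-IP libraries it had 0.583 to 0.953 in hen1 and 1.80 to 2.30 in hen1/dora cells. WT total-sRNA libraries had 7.75 to 8.62 and WT Ago1 co-IP libraries 48.7 to 63.8. The order of library types in cells with Dora thus depended on the cohort.

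Upon loss of Hen1, miR-7-5p did not pass the threshold in either background. With library size set to the reads of the Ago1-enriched cohort, as the separate batches required, the log2 fold change from WT to hen1 was 0.38 (95% interval 0.02 to 0.73, adjusted p = 0.0686 from edgeR; 52% of 98 miRNAs were called), and the groups of 273 to 294 and 354 to 408 RPM did not overlap. From dora to hen1/dora it was 0.25 (95% interval -0.11 to 0.61, adjusted p = 0.296 from edgeR; 17.5% of 103 were called). The first passed the threshold under 4 other scalings or tools, with log2 fold changes from 0.41 to 0.79. Hen1 and library batch cannot be told apart in either comparison. Under the cohort scaling the median log2 fold change of all 98 miRNAs from WT to hen1 was itself -0.44, with 8 rises and 43 falls, against -0.08 with 19 rises and 18 falls under TMM. miR-7-3p had a log2 fold change of -0.65 under the cohort scaling (adjusted p = 0.0196 from edgeR) and of -0.29 under TMM (adjusted p = 0.237 from edgeR), and it passed the threshold in 6 of 12 alternatives. Its call was also lost without hen1 replicate 3 (adjusted p = 0.0893 from edgeR) and without WT replicate 3 (adjusted p = 0.0506 from edgeR).

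The 10 groups ordered miR-7-5p as follows. Dora Ago1 co-IP came first with 6590 ± 617 RPM, then hen1/dora total-sRNA with 4903 ± 629, dora total-sRNA with 4138 ± 366 and hen1/dora Ago2 co-IP with 795 ± 100.2 (SD, n = 3 each). The groups with Dora came next, with hen1 total-sRNA at 377 ± 28.1, WT total-sRNA at 285 ± 10.7, WT Ago1 co-IP at 284 ± 38.9 and hen1 Ago2 co-IP at 269 ± 68.8 RPM. Treated dora (165 ± 26.6) and treated WT libraries (85.2 ± 49.0) were last. Neighbours whose ranges overlapped were WT total-sRNA and WT Ago1 co-IP, WT Ago1 co-IP and hen1 Ago2 co-IP, and treated dora and treated WT. The highest group mean was 77.3 times the lowest.

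The miRNA whose level followed miR-7-5p most closely was miR-9b-5p. Over the 30 libraries, Pearson's r of log2(RPM + 1) was 0.94 for miR-9b-5p, 0.84 for miR-279-3p, 0.83 for miR-34-5p, 0.82 for miR-999-3p and 0.75 for miR-275-3p, of 109 miRNAs with a mean above 5 RPM. The median r of the 109 was 0.00 and that of the passenger miR-7-3p was -0.42. These are descriptions, because the libraries share genotypes, types and batches. The mean level of miR-9b-5p was 919 RPM in WT and 4494 RPM in dora total-sRNA libraries, 787 and 5667 RPM in Ago1 co-IP, 129 and 183 RPM in treated, and 375 and 731 RPM in hen1 and hen1/dora Ago2 co-IP libraries.

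miR-9b-5p, miR-279-3p and miR-999-3p were 3 of the 9 other Dora-sensitive miRNAs, and the r of the remaining 6 ranged from 0.11 for miR-277-3p to 0.62 for miR-1012-3p. miR-34-5p belongs to the Ago1-enriched cohort used for scaling, and its mean was 26860 RPM in WT and 40252 RPM in dora total-sRNA libraries. The study reports that miR-34 rose upon loss of Dora without passing its stricter threshold. It proposes that miR-34 might also be a substrate of target-directed degradation. The cohort was chosen to be unchanged upon loss of Dora in aggregate, not for each member. miR-190-5p, with an r of 0.31, differed from miR-7-5p in that its treated libraries were high, at 6886 ± 424 RPM in WT and 7828 ± 512 RPM in dora cells (SD, n = 3). In total-sRNA libraries it had 1562 ± 56.8 RPM in WT and 9268 ± 403 RPM in dora cells (SD, n = 3).

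**Figure D5:**
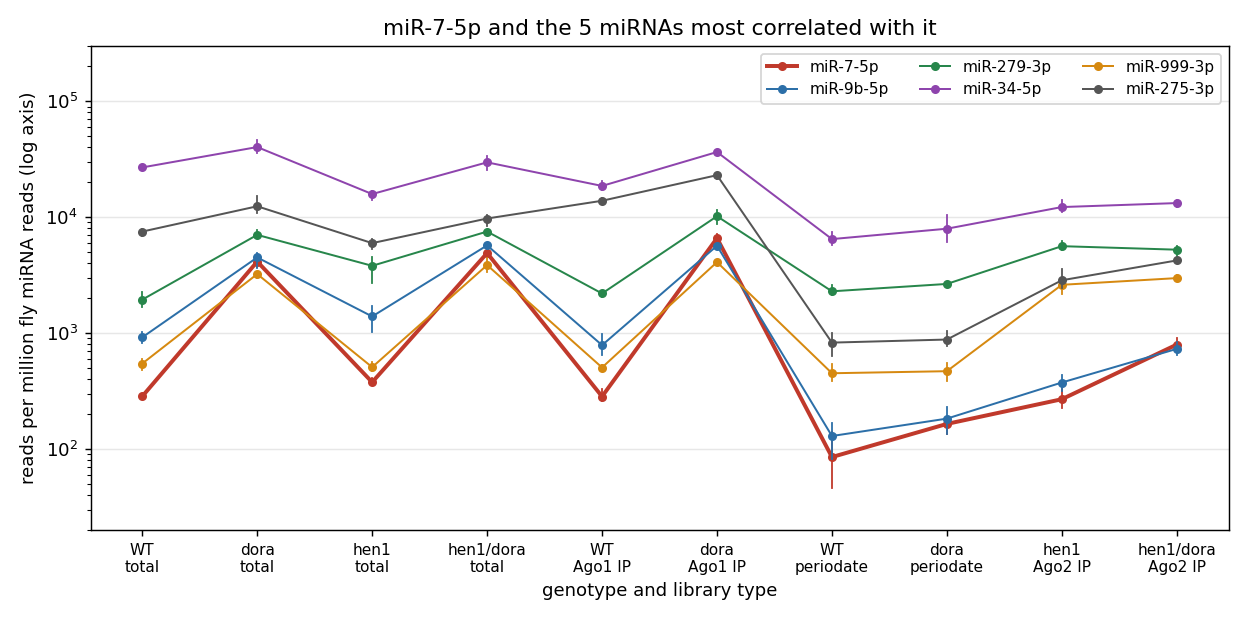
Mean RPM, as a share of fly miRNA reads (log axis), of miR-7-5p and of the 5 miRNAs most correlated with it, over 10 groups of 3 libraries; vertical lines span the lowest to the highest library. Like miR-7-5p, miR-9b-5p (129 and 183 RPM), miR-999-3p (450.4 and 469 RPM), miR-34-5p and miR-275-3p have their lowest means in the treated groups. For miR-999-3p, however, treated WT libraries (383 to 537 RPM) overlap WT total-sRNA libraries (477 to 596 RPM). miR-279-3p has its lowest mean, 1944 RPM, in WT total-sRNA libraries.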

How the data were processed

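The authors removed adapters, filtered the reads and assigned a read to a miRNA when its first 19 nucleotides matched that miRNA. The values deposited are these read counts, unscaled, for 310 fly miRNAs and 4 markers or standards. Longer, tailed and shorter forms down to 19 nucleotides are therefore pooled, and shorter ones are not counted. Counts were compared with edgeR 4.0.16 in R 4.3.3 (quasi-likelihood test, Benjamini-Hochberg adjustment over all miRNAs tested, threshold 0.05). Tested miRNAs had a control mean above 5 RPM, or for comparisons between library types a mean above it in either group. None had a coefficient of variation further than 1.5 interquartile ranges outside the quartiles. These filters were modelled on the study's. Differences between fold changes were tested for miRNAs that passed in both comparisons. TMM normalization was used for Dora comparisons, all fly miRNA reads as library size between library types, and the cohort of 15 miRNAs for Hen1. Arm ratios used 0.5 added reads and exact two-sided permutation tests. Standard errors of edgeR fits were computed as the absolute log2 fold change over the square root of the F statistic. Intervals of these fits are at 95%, from those errors and the t distribution. DESeq2 1.42.0, other scalings, no filters, a replicate block and leaving out each library were the alternatives. DESeq2 always used its own size factors, so its values differ from the main fits in scaling as well as in test. Steps were tested on simulated data. Python 3.11.15 with scipy 1.17.1 gave levels and binomial intervals.

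Each group had 3 libraries with 265759 to 11522776 fly miRNA reads, from separate clonal lines as the study describes. All main values come from fits without a replicate block, which was run only as an alternative. Same-numbered libraries were judged to be pairs where 3 pairs all had deviations correlated above 0.1, which held for dora against hen1/dora total-sRNA libraries and for Ago1 co-IP against treated libraries in each genotype (r from 0.18 to 0.65). The standard errors, intervals and p-values given for those comparisons do not use the pairs. With the replicate block no call of miR-7-5p changed in them. Ago2 co-IP libraries carried no number that could be used for pairing. The named miRNAs were both arms of mir-7, the other Dora-sensitive miRNAs, the 5 with the highest Pearson correlation with miR-7-5p and any that shared its seed. Members and lists were chosen with earlier results of these data known. Tables of siRNAs and the RNA-seq were not used here, and the sequence of miR-7 is not reported here.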

Additional observations from a re-analysis of the deposited data

Results flagged for a closer look

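The change in miR-7-5p upon loss of Dora differed between library types by 3 tests of the difference. It was lower in treated than in total-sRNA libraries (log2 difference -3.26), lower in Ago2 co-IP than in total-sRNA libraries of the lines without Hen1 (log2 difference -2.18) and higher in Ago1 co-IP than in treated libraries (log2 difference 3.61). Each kept its direction and its side of the threshold under every alternative run. Their causes were not tested.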

How the results depend on the processing

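Of 260 alternative values for the 20 fold changes, differences and enrichments of miR-7-5p, 248 kept the direction and the side of the threshold, as did all 35 for the arm ratios. The rises upon loss of Dora had log2 fold changes of 3.86 to 4.10 in total-sRNA, 4.401 to 4.71 in Ago1 co-IP, 3.53 to 3.82 in hen1 total-sRNA and 1.34 to 1.68 in Ago2 co-IP libraries. The value in treated libraries ranged from 0.49 to 1.36 and never passed the threshold. The exceptions follow, and their cause was not tested. The Ago1 co-IP against total-sRNA difference was 0.77 with TMM over all libraries and 0.68 with all fly miRNA reads. With the Ago1-enriched cohort as library size, the shares of miR-7-5p reversed to 1.09 (treated against total-sRNA, WT), -1.17 (Ago1 co-IP against treated, WT) and 1.46 (Ago2 co-IP against total-sRNA, hen1). The last was -1.60 with TMM, -1.86 with DESeq2 and -0.72 to -0.38 when each library was left out. WT against hen1 was 0.74 with TMM, 0.41 with all fly miRNA reads, 0.71 with added standards and 0.79 with DESeq2, which did not use the cohort scaling. The replicate block changed no call of miR-7-5p. It was not run for comparisons with Ago2 co-IP libraries, which carry no number. Between WT and dora total-sRNA libraries it gave 11 rises and 2 falls, where without it there were 18 and 12. Only 2 pairs of libraries bore on that block, because a WT column had no number and left a dora library without a partner. In comparisons whose libraries share only a number, the deviations of same-numbered libraries correlated with r from -0.40 to 0.61 wherever 3 pairs existed. Some of these libraries correlated best with another number. With TMM over all libraries, the differences of -3.26, 3.61 and -2.18 were -2.71, 2.71 and -1.53, and the Ago1 co-IP against treated difference of miR-7-3p turned from 0.09 to -0.77. With TMM, the Ago1 co-IP against treated ratios of miR-7-5p were 3.50 in WT and 6.07 in dora cells, and the treated against total-sRNA ratios were -2.46 and -5.25. The Ago2 co-IP against total-sRNA ratio in hen1/dora cells was -3.60. The rise of miR-279-3p in hen1 total-sRNA libraries was 0.84 without the filter on variation (adjusted p = 0.0511 in edgeR). All other Dora calls of both arms of mir-7 and of the Dora-sensitive miRNAs in total-sRNA and Ago1 co-IP libraries held under each alternative. miR-34-5p and miR-275-3p were not included in these checks. The median of all miRNAs moved from -0.03 to -0.18 in the total-sRNA Dora comparison with all fly miRNA reads, and from -0.03 to 0.20 in Ago1 and from 0.02 to 0.19 in hen1 total-sRNA with the cohort. Over alternatives, rises and falls were 11 to 26 and 1 to 15 in total-sRNA, 0 to 2 and 0 to 3 in treated, 20 to 35 and 8 to 22 in Ago1 co-IP, 10 to 23 and 0 to 7 in hen1 total-sRNA, and 1 to 5 and 0 to 8 in Ago2 co-IP libraries. Depth limits the treated libraries, where miR-7-5p had 18 to 90 reads.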
